A study of Mus musculus with 6 samples.

Results

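The genes described here are 35 genes of glycolysis and of the response to low oxygen: the transporters of glucose and lactate, the enzymes that turn glucose into lactate, the kinases that hold back pyruvate dehydrogenase, the hypoxia-inducible factors (HIF) with their oxygen sensors, and genes known to respond to HIF. They were given as a list of gene symbols, and they make up 35 of the 17254 genes listed in any library. All 35 were found in the gene tables, and all 35 passed the filter on low values (a mean FPKM of at least 1 over the 6 libraries; FPKM is a level per length of transcript and per library), as did 11717 genes in all.

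Neural stem and progenitor cells (NSPCs) of the mouse were grown in N2 media with EGF and bFGF and left untreated (control), or given paraquat (PQ, 5 µM) or N-acetylcysteine (NAC, 5 mM), for 48 h, with 2 libraries per group. PQ is a pro-oxidant that cycles with oxygen and generates superoxide, and NAC is a thiol antioxidant, so the groups compare a more oxidized and a more reduced state with the untreated one. The cells are Ink/Arf-/- according to the methods, a single immortalized culture from neonatal mice that holds a mixture of stem cells, precursors and oligodendroglial progenitors; the labels of control 1 and PQ 1 give the genotype as "Ink/Ark knockout" and the strain as C57BL/6, and those of the other 4 libraries give neither. All 3 groups therefore lack the Ink/Arf locus. The labels do not say that the libraries of a group came from separate cultures, so the p-values measure the spread between these libraries, which may be technical. The RNA is from whole cultures, in which fewer cells that express a gene and less of its RNA per cell cannot be told apart.

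Total expected counts, the reads assigned to genes, ranged from 9680436 in PQ 2 to 10698241 in NAC 1. By the numbers in the titles and file names, libraries 8 to 10 (control 2, PQ 2 and NAC 1) form set A and libraries 11 to 13 (control 1, PQ 1 and NAC 2) form set B. The labels do not say that the libraries of a set were made together. The labels name an Illumina protocol for control 1 and PQ 1 and BGISEQ-500 for the other 4 libraries. All 10 markers of neural stem and progenitor cells passed the filter, with summed levels of 3387 and 3466 FPKM in control, 3749 and 3806 in PQ and 2658 and 2580 in NAC, most of it Vim. The sum does not stand for each marker, as 6 of the 10 had a log2 fold change above 0 in NAC against control. Rbfox3, a marker of mature neurons, and Cldn5, a marker of endothelium, were at 0 in every library, and the microglial genes Aif1, Csf1r and Tmem119 had at most 3 counts in any. Of the other microglial markers, P2ry12 reached 97 counts and Cx3cr1 33.9.

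Glycolysis splits glucose into pyruvate in the cytosol and yields ATP without oxygen. Cells that divide fast, neural progenitors among them, run it at a high rate even when oxygen is present, turn much of the pyruvate into lactate and export it. When oxygen is low, prolyl hydroxylases no longer mark HIF-1α and HIF-2α for destruction, and the factors bind the letters ACGTG or GCGTG in DNA near genes for glucose uptake, for most steps of glycolysis and for the supply of oxygen.

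NAC lowered most of the list, and fewer of its members were called in PQ. Against control, 29 of the 35 genes were lower in NAC and 0 higher (edgeR quasi-likelihood test, adjusted p below 0.05), where 9.64% of all genes tested were lower and 9.01% were higher. The median log2 fold change of the list was -0.81, beside 0.00 for all genes tested, and 10 of its genes fell at least 2-fold, as did 175 of all 11717. In PQ against control 6 genes were lower, beside 9.45% of all genes, and 2 were higher, beside 9.76%, with a median of -0.09. With 1 library left out at a time, the count of lower genes in PQ ran from 1 to 8. Between the treatments, 29 genes were higher in PQ than in NAC, where 16.0% of all genes were higher, and 0 were lower, where 15.7% were. The median difference of PQ from NAC was 0.58 on the log2 scale, beside 0.00 for all genes. At an unadjusted p under 0.05, edgeR had 3 genes higher in NAC than in control (Slc16a1, Pfkm and Pdk2) and 0 lower in PQ than in NAC. By adjusted p, DESeq2 and limma also called 0 genes higher in NAC than in control and 0 lower in PQ than in NAC. The comparisons share libraries and are not independent of each other. The 35 genes were chosen with earlier results of these data known, so the counts beside all genes describe this list only.

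The counts follow the single libraries. For each gene the log2 of CPM (counts scaled to library size by edgeR's TMM method) was taken relative to the mean of the control libraries. The median over the 35 genes was -0.92 in NAC 1 and -0.64 in NAC 2, against -0.14 and -0.03 in PQ 1 and PQ 2 and -0.05 and 0.05 in control 1 and control 2. Both NAC libraries thus lay far below the other 4, and NAC 1 was below NAC 2 for 31 of the 35 genes. For 30 of the 35 genes both NAC libraries were lower than both control libraries, as they were for 28.2% of all genes tested, where chance alone gives 16.7%.

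The median of NAC minus control was below 0 in both sets and among the BGISEQ-500 libraries, and no NAC library carries the Illumina label. In set A the median of NAC minus control was -1.02, with 31 of the 35 genes below 0, and in set B it was -0.58, with 30 below 0. Among the libraries labelled BGISEQ-500 alone it was -0.89, with 31 below 0. The medians of PQ minus control were -0.09 in set A, which is also the comparison within BGISEQ-500, and -0.14 in set B. The control libraries themselves differed by a median of 0.10 over the list (control 2 minus control 1), the PQ libraries by 0.12 (PQ 2 minus PQ 1) and the NAC libraries by -0.26 (NAC 1 minus NAC 2).

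**Figure D1:**
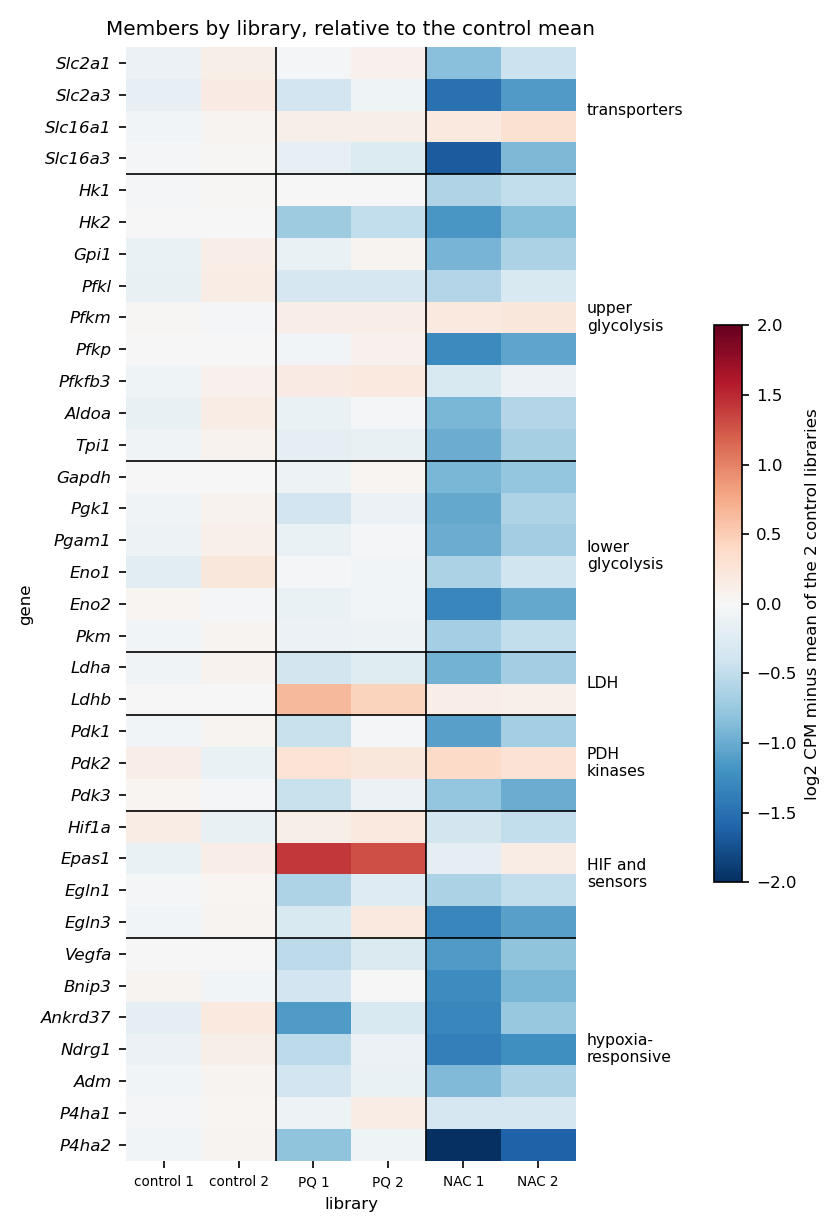
Each row is a gene of the list, grouped by role, and each column a library; the colour is the log2 CPM minus the mean of the control libraries, from -2 (blue) to 2 (red). The NAC columns are blue in nearly every row, with Slc16a1, Pfkm, Ldhb and Pdk2 as pale red exceptions, and the PQ columns are paler, with Epas1 and Ldhb red, Hk2 blue, and Ankrd37 and P4ha2 bluest in PQ 1.

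**Figure D2:**
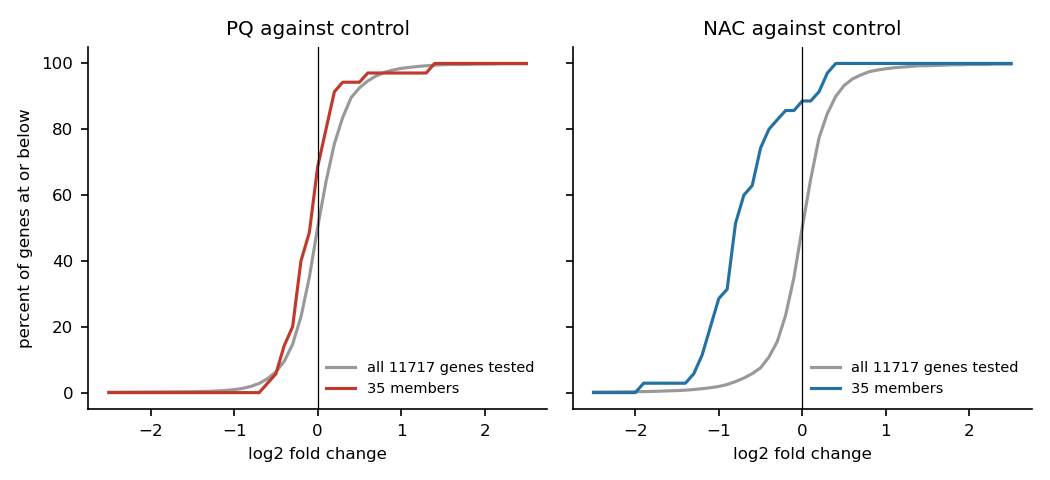
The lines give the percent of genes whose log2 fold change against control is at or below the value on the x axis, for all 11717 genes tested (grey) and for the 35 genes of the list (coloured), in PQ on the left and in NAC on the right. At or below 0 lie 68.6% of the list and 50.2% of all genes in PQ (median of the list -0.09), and 88.6% and 50.3% in NAC (median -0.81).

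Markers of other cell types moved with NAC as well. Of the 6 astrocyte markers, all tested, 4 were higher in NAC than in control and 0 were lower, beside 9.01% and 9.64% of all genes. The summed levels of the 6 were 114 and 100.4 FPKM in control, 82.5 and 84.4 in PQ and 141 in each NAC library. Aldh1l1 went the other way, at 3.54 and 4.24 CPM in control, 10.1 and 7.41 in PQ and 3.44 and 2.08 in NAC. Its log2 fold change was 1.17 in PQ (edgeR adjusted p = 0.0035) and -0.49 in NAC (edgeR adjusted p = 0.31). The most abundant astrocyte marker was Slc1a3, a glutamate transporter. Gfap, the intermediate filament of astrocytes, was low throughout, at 4.58 and 5.96 CPM in control and 11 and 13.8 in NAC. Of the 4 oligodendrocyte lineage markers tested, 3 were higher in NAC (9.01% of all genes were), with summed levels of 652 and 753 FPKM over all 7 markers in control, 768 and 666 in PQ and 816 and 926 in NAC. Cspg4, below the filter, went the other way, at 7.60 and 7.58 CPM in control and 5.39 and 6.05 in NAC. Olig1 was the most abundant, and Sox10 had at most 3 counts in any library. The summed level of the 6 neuronal markers was 38.4 and 36.2 FPKM in control, 33.9 and 35 in PQ and 65.5 and 59.0 in NAC, nearly all of it Map2. Tubb3, a neuronal tubulin below the filter, went the other way, at 4.27 and 2.32 CPM in control and 0.557 and 0.794 in NAC, as did Syt1, at 0.833 and 1.11 and at 0.279 and 0.496. The microglial marker P2ry12 rose in NAC from a low level, from 3.64 and 3.03 CPM to 9.01 and 6.05 (edgeR adjusted p = 0.0033). Vim, an intermediate filament of progenitors, fell in NAC by a log2 value of -0.75 with a standard error (SE) of 0.08 (edgeR adjusted p = 3.8e-06). Of all 10 progenitor markers, 3 were lower in NAC and 0 higher, beside 9.64% and 9.01% of all genes. Their median log2 fold change in NAC was 0.09. The 10 genes with the most counts held 3.82% and 4.03% of all counts in NAC, beside 4.80% and 5.03% in control and 4.72% and 5.03% in PQ. The part of these shifts in the result for the list was not tested.

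Because the genes moved together, their promoters were searched for the core letters of the HIF site. The sequences are those of RefSeq on GRCm38.p6, in which 32 of the 35 genes have an entry (all but Slc2a3, Epas1 and Ndrg1). The 250 bases before the start were read on both strands, and a gene with several starts was counted once. ACGTG was present before 21 of the 32 genes (65.6%), beside 18.5% of all 27025 genes in the table. GCGTG was also present before 21 of the 32 genes, beside 30.9% of all genes. The list was built from genes that include known HIF targets, so these shares describe the list. The palindrome CACGTG, which holds ACGTG on both strands, was counted after the values had been seen. It stood before 3 of the 27 genes with an entry that were lower in NAC and before 4 of the 5 that were not called, beside 6.86% of all genes. ACGTG stood before 17 of the 27 and 4 of the 5, and GCGTG had the same counts. The 27 genes had 36 entries and the 5 genes had 10, so a gene of the 5 had more starts at which to match. The difference in the palindrome was not tested.

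The windows below are examples picked after the values had been seen, from 6 genes of several roles that fell in NAC and hold ACGTG, and from 3 that were not called in NAC and hold the palindrome. Each is written on the gene's strand, with ACGTG or its complement CACGT in capitals (CACGTG where both overlap).
Ldha, chr7:46845741-46845789, plus strand, -63 to -15: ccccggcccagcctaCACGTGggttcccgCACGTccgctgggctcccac
Pgk1, chrX:106186935-106186988, plus strand, -165 to -112: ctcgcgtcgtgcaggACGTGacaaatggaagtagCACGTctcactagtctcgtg
Slc16a3, chr11:120949025-120949066, plus strand, -42 to -1: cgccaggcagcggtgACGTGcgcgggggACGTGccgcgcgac
P4ha2, chr11:54100831-54100865, plus strand, -93 to -59: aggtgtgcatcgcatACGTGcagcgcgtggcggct
Slc2a1, chr4:119108694-119108728, plus strand, -51 to -17: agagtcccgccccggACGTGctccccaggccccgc
Bnip3, chr7:138909594-138909629, minus strand, -123 to -88: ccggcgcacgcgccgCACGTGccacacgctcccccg
Slc16a1, chr3:104638449-104638484, plus strand, -215 to -180: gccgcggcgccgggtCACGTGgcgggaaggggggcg
Pfkm, chr15:98092438-98092473, plus strand, -151 to -116: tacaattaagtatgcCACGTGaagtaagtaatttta
Pdk2, chr11:95041477-95041512, minus strand, -141 to -106: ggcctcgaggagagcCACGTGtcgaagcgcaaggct
The letters ACGTG occur at 2 places in the windows of Ldha, Pgk1 and Slc16a3 and at 1 place in each of the others. Genes that fell in NAC and genes that were not called both carry them.

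Glucose enters these cells through Slc2a1 (GLUT1), the broadly used transporter, and Slc2a3 (GLUT3), the high-affinity transporter best known from neurons. Slc2a1 had 402 and 467 CPM in control 1 and control 2, 426 and 462 in PQ 1 and PQ 2, and 242 and 321 in NAC 1 and NAC 2. The NAC libraries were the lowest 2 and did not overlap with control, and the PQ libraries lay within the control range. The log2 fold change of Slc2a1 was -0.63 in NAC (SE 0.12, edgeR adjusted p = 7.5e-04) and 0.03 in PQ (edgeR adjusted p = 0.89). Slc2a3 had 521 and 655 CPM in control, 447 and 554 in PQ and 208 and 267 in NAC, again with NAC lowest and PQ overlapping control. It fell further than Slc2a1 in NAC, with a log2 fold change of -1.31 (SE 0.13, edgeR adjusted p = 1.1e-06). In PQ its value was -0.23 (edgeR adjusted p = 0.23), and without control 1 it was -0.39 (edgeR adjusted p = 0.035).

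Lactate leaves and enters cells through Slc16a1 (MCT1) and Slc16a3 (MCT4), of which the latter is typical of cells that export much lactate. Slc16a3 had 65.2 and 67.0 CPM in control, 58.6 and 54.9 in PQ and 20.8 and 35.3 in NAC. Both NAC libraries were far below the rest, although they also differed between themselves. It fell in NAC with a log2 fold change of -1.24 (SE 0.16, edgeR adjusted p = 1.8e-05). Slc16a1 had 178 and 191 CPM in control, 200.1 and 199.7 in PQ and 212 and 227 in NAC. Here the NAC libraries were the highest, with a log2 fold change of 0.25 that did not pass the test (edgeR adjusted p = 0.066).

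The first step, phosphorylation of glucose, is carried out by the hexokinases Hk1, a housekeeping form, and Hk2, an inducible one. Hk2 had 95.2 and 95.7 CPM in control, 58.4 and 67.9 in PQ and 42.4 and 53.1 in NAC, and the 3 groups did not overlap. It fell in both treatments, with a log2 fold change of -0.60 in PQ (SE 0.11, edgeR adjusted p = 0.0011) and -1.0 in NAC (SE 0.12, edgeR adjusted p = 5.5e-06). Hk1 had 336 and 351 CPM in control, 341 and 346 in PQ and 226 and 243 in NAC. It fell in NAC with a log2 fold change of -0.55 (edgeR adjusted p = 2.0e-04), and in PQ it was at 0.00.

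Gpi1, which turns glucose 6-phosphate into fructose 6-phosphate, had 4091 and 5001 CPM in control, 4103 and 4689 in PQ and 2370 and 2896 in NAC. Its NAC libraries were below all others, with a log2 fold change of -0.79 (SE 0.11, edgeR adjusted p = 4.6e-05). The 3 genes of phosphofructokinase, which commits sugar to glycolysis, went different ways. Pfkp, the platelet form, had 255 and 258 CPM in control, 248 and 271 in PQ and 106 and 123 in NAC. Its log2 fold change was -1.16 (SE 0.10, edgeR adjusted p = 2.1e-07), while that in PQ was 0.01. Pfkl, the liver form, had 206 and 252 CPM in control, 181 in each PQ library and 152 and 184 in NAC. It was lower in both treatments, with log2 fold changes of -0.34 in PQ (edgeR adjusted p = 0.037) and -0.45 in NAC (edgeR adjusted p = 0.0074). Without control 2, the higher control library, neither passed the test, at -0.19 in PQ (edgeR adjusted p = 0.28) and -0.30 in NAC (edgeR adjusted p = 0.073). The call in PQ was also lost without PQ 1 (edgeR adjusted p = 0.18) or PQ 2 (edgeR adjusted p = 0.14), with the replicate block (edgeR adjusted p = 0.077) and with limma (adjusted p = 0.14 against edgeR's 0.037), and that in NAC without NAC 1 (edgeR adjusted p = 0.14). Pfkm, the muscle form, had 79.1 and 76.0 CPM in control, 85.1 and 84.8 in PQ and 88.2 and 90.4 in NAC, and was not called. Pfkfb3, which makes the activator fructose 2,6-bisphosphate, was not called against control either, at 148 and 165 CPM in control, 174 and 178 in PQ and 127 and 144 in NAC. The difference of PQ from NAC was called, with a log2 value of 0.37 (SE 0.10, edgeR adjusted p = 0.0074), but not without PQ 2 (0.36, edgeR adjusted p = 0.057) or NAC 1 (0.28, edgeR adjusted p = 0.12).

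Aldoa and Tpi1 split the sugar and interconvert the products. Aldoa had 2091 and 2563 CPM in control, 2113 and 2262 in PQ and 1222 and 1547 in NAC, and Tpi1 had 1595 and 1750, 1450 and 1502, and 842 and 1060 in the same order of groups. Both genes were lowest in the NAC libraries. Their log2 fold changes in NAC were -0.75 for Aldoa (edgeR adjusted p = 9.0e-05) and -0.82 for Tpi1 (edgeR adjusted p = 1.4e-05), with standard errors of 0.11 and 0.10.

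All 6 genes of the lower steps, from Gapdh to Pkm, fell in NAC, where 9.64% of all genes were lower. None was called in PQ, where 9.45% of all genes were lower and 9.76% higher. Gapdh, which oxidizes glyceraldehyde 3-phosphate and is often used as a reference gene, had 10014 and 10083 CPM in control, 9371 and 10350 in PQ and 5339 and 5856 in NAC. Both NAC libraries lay far below the other 4. For Gapdh the log2 fold change was -0.84 in NAC (SE 0.09, edgeR adjusted p = 1.5e-06) and -0.03 in PQ (edgeR adjusted p = 0.87). Pgk1, the next enzyme and the first to make ATP, had 2285 and 2519 CPM in control, 1829 and 2230 in PQ and 1178 and 1569 in NAC. Its NAC libraries were the lowest, with a log2 fold change of -0.81 (SE 0.12, edgeR adjusted p = 8.3e-05). Pgam1, a phosphoglycerate mutase, had 1591 and 1841 CPM in control, 1550 and 1689 in PQ and 855 and 1052 in NAC, with a log2 fold change of -0.85 in NAC (SE 0.11, edgeR adjusted p = 1.2e-05).

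Enolase is encoded by Eno1, the form of most cells, and Eno2, the form typical of neurons. Eno2 had 209 and 198 CPM in control, 184 and 197 in PQ and 81.9 and 99.6 in NAC. It fell by more than a factor of 2 in NAC, with a log2 fold change of -1.16 (SE 0.11, edgeR adjusted p = 3.4e-07). Eno1 had 2411 and 3251 CPM in control, 2766 and 2711 in PQ and 1811 and 2126 in NAC, so the control libraries differed by nearly as much as the groups. Its log2 fold change in NAC was -0.52 (SE 0.12, edgeR adjusted p = 0.0032), and the call was lost without control 2 (-0.29, edgeR adjusted p = 0.077) and without NAC 1 (-0.41, edgeR adjusted p = 0.080). Pkm, pyruvate kinase, had 4272 and 4576 CPM in control, 4103 and 4130 in PQ and 2760 and 3139 in NAC. It fell in NAC with a log2 fold change of -0.58 (SE 0.09, edgeR adjusted p = 9.7e-05).

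**Figure D3:**
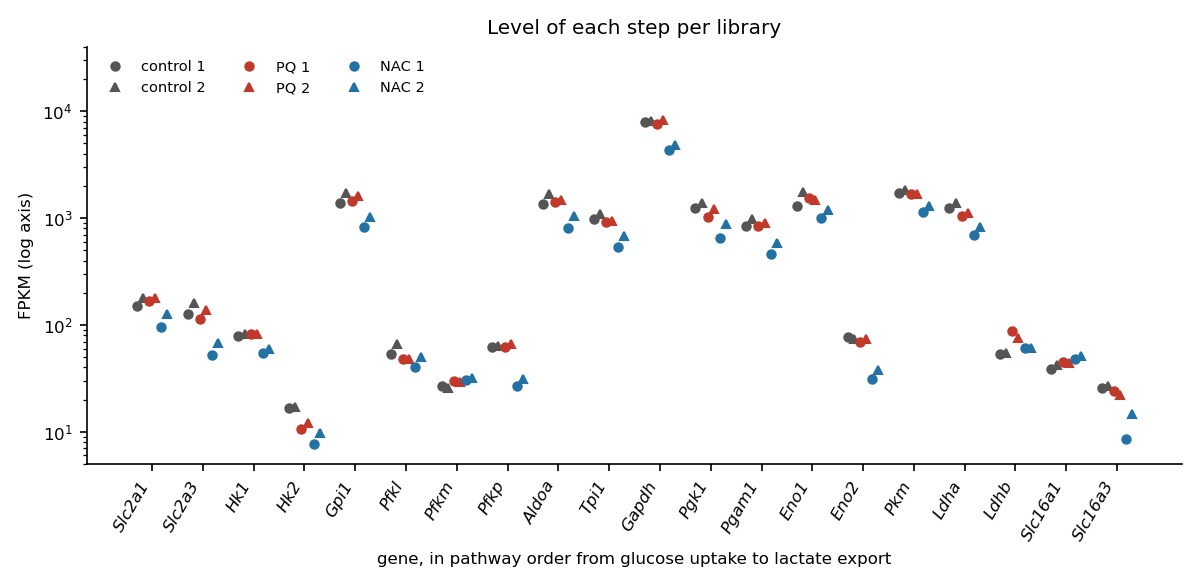
FPKM per library on a log axis for the transporters and enzymes in the order of the pathway; circles and triangles are libraries 1 and 2 of control (grey), PQ (red) and NAC (blue). The blue points lie below the others for most genes, and above control for Pfkm, Ldhb and Slc16a1; Gapdh has the highest level, from 4346 to 8275 FPKM.

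On the per-length scale the steps differed widely in level. Averaged over the 6 libraries, Gapdh stood at 6833 FPKM, followed by Pkm at 1566, Eno1 at 1372, Gpi1 at 1339 and Aldoa at 1290. The hexokinases and phosphofructokinases lay far lower, at 73.0 FPKM for Hk1, 52.1 for Pfkp, 50.9 for Pfkl, 28.9 for Pfkm and 12.3 for Hk2. The levels of Eno1, Gpi1 and Aldoa overlapped between libraries, so their order among each other is within the spread. The 16 genes from hexokinase to lactate dehydrogenase together held 4.16% and 4.67% of all FPKM in control, 4.10% and 4.36% in PQ and 2.53% and 2.95% in NAC. Of these 16 genes, 14 were lower in NAC (87.5%, beside 9.64% of all genes tested). In PQ 3 were lower (18.8%, beside 9.45%) and 1 was higher (6.25%, beside 9.76%). Gapdh alone held between 38.1% and 43.4% of the summed level of the 16 genes in every library. Expected counts of Gapdh, Gpi1, Pfkl, Pfkfb3, Eno1, Pdk1, Vegfa and Adm were fractional in all 6 libraries, those of Eno2 and Epas1 in 5 and those of Ldha in 2. Their reads may be split with paralogs or pseudogenes, and the levels of these 11 genes are uncertain.

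Lactate dehydrogenase has 2 subunits, of which Ldha favours the making of lactate and Ldhb its use. Ldha had 2088 and 2302 CPM in control, 1710 and 1861 in PQ and 1135 and 1355 in NAC, and the 3 groups did not overlap. Its log2 fold change was -0.82 in NAC (SE 0.10, edgeR adjusted p = 8.5e-06) and -0.30 in PQ (SE 0.10, edgeR adjusted p = 0.039). The call in PQ was lost with the set as a replicate block (edgeR adjusted p = 0.088), with the labelled platform as a covariate (edgeR adjusted p = 0.055), and without PQ 1 (-0.24, edgeR adjusted p = 0.29), PQ 2 (-0.36, edgeR adjusted p = 0.065) or control 2 (-0.23, edgeR adjusted p = 0.19), and limma did not call it (adjusted p = 0.13 in place of edgeR's 0.039). Ldhb went the opposite way in PQ, at 71.5 and 73.0 CPM in control, 113 and 98.9 in PQ and 79.8 and 77.5 in NAC. The PQ libraries were above all others, with a log2 fold change of 0.55 (SE 0.10, edgeR adjusted p = 7.5e-04), and in NAC it was 0.12 (edgeR adjusted p = 0.45). This call held in each of the 11 alternative settings, from 0.45 to 0.65.

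The pyruvate dehydrogenase kinases switch off the enzyme that feeds pyruvate into mitochondria. Pdk1, the HIF-responsive form, had 191 and 205 CPM in control, 145 and 193 in PQ and 93.1 and 124 in NAC. Pdk3 had 67.9 and 63.9 CPM in control, 48.2 and 61.0 in PQ and 38.3 and 33.2 in NAC. Both were lowest in NAC, with log2 fold changes of -0.87 for Pdk1 (SE 0.13, edgeR adjusted p = 1.2e-04) and -0.88 for Pdk3 (SE 0.12, edgeR adjusted p = 4.5e-05). PQ 1 was below PQ 2 for both genes, and neither was called in PQ, although Pdk3 was called without PQ 2 (-0.45, edgeR adjusted p = 0.045, against -0.27 with all libraries). Pdk2 differed from them, at 27.6 and 22.8 CPM in control, 30.4 and 29.1 in PQ and 32.7 and 30.7 in NAC, with a log2 fold change of 0.33 in NAC (edgeR adjusted p = 0.089) that reached 0.47 without control 1 (edgeR adjusted p = 0.037).

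Hif1a encodes HIF-1α, whose amount is set mainly by the stability of the protein, which RNA does not show. Its RNA had 780.4 and 634 CPM in control, 759.8 and 805 in PQ and 549 and 499 in NAC. The NAC libraries were the lowest 2, with a log2 fold change of -0.43 (SE 0.10, edgeR adjusted p = 0.0051), and the call was lost without control 1 (-0.28, edgeR adjusted p = 0.087) and without NAC 2 (-0.37, edgeR adjusted p = 0.081). Epas1, which encodes HIF-2α, behaved differently, with 12.7 and 15.2 CPM in control, 37.1 and 33.9 in PQ and 12.1 and 15.4 in NAC. Both PQ libraries were more than 2 times as high as any other library. Its log2 fold change was 1.35 in PQ (SE 0.15, edgeR adjusted p = 8.8e-06) and -0.03 in NAC (edgeR adjusted p = 0.94). It was the largest rise in the list, from a low level of 2.53 FPKM on average in control to 6.56 in PQ. The averages of Hif1a were 144 FPKM in control and 162 in PQ. Over the alternative settings the value in PQ ranged from 1.10 to 1.48 and was called in each.

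Egln1 (PHD2) and Egln3 (PHD3) are the prolyl hydroxylases that sense oxygen, and both are themselves known to respond to HIF. Egln3 had 96.0 and 104 CPM in control, 80.5 and 115 in PQ and 40.4 and 46.9 in NAC. Its PQ libraries lay on either side of control, whereas both NAC libraries were lower than all others, with a log2 fold change of -1.20 (SE 0.14, edgeR adjusted p = 5.4e-06). Egln1 had 372 and 394 CPM in control, 251 and 319.6 in PQ and 247 and 271 in NAC. It fell in both treatments, with log2 fold changes of -0.42 in PQ (edgeR adjusted p = 0.0094) and -0.56 in NAC (edgeR adjusted p = 9.5e-04), each with a standard error of 0.11. Without PQ 1 the value in PQ was -0.26 (edgeR adjusted p = 0.23).

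The 7 hypoxia-responsive genes of the list all fell in NAC, where 9.64% of all genes were lower, with a median log2 fold change of -1.03. P4ha2, an alpha subunit of the prolyl hydroxylase that matures collagen, had 36.5 and 39.7 CPM in control, 21.8 and 35.9 in PQ and 7.24 and 12.5 in NAC. Its fall in NAC was the largest of the 35 genes, with a log2 fold change of -1.96 (SE 0.22, edgeR adjusted p = 4.7e-06). In PQ the libraries differed, and the value was -0.41 (edgeR adjusted p = 0.17), or -0.81 without PQ 2 (edgeR adjusted p = 0.017). P4ha1, an alternative alpha subunit, had 234 and 246 CPM in control, 223 and 266 in PQ and 189 and 191 in NAC. Its small fall in NAC, a log2 fold change of -0.34 (SE 0.10, edgeR adjusted p = 0.022), was lost without control 2 (-0.30, edgeR adjusted p = 0.067), NAC 1 (-0.33, edgeR adjusted p = 0.12) or NAC 2 (-0.34, edgeR adjusted p = 0.098).

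Ndrg1, a stress-responsive gene of differentiation, had 333 and 387 CPM in control, 249.8 and 332 in PQ and 139 and 154 in NAC. Bnip3, which directs mitochondria to autophagy, had 822 and 770.1 CPM in control, 611 and 788 in PQ and 333 and 423 in NAC. For both genes the NAC libraries stood clearly apart, with log2 fold changes of -1.30 for Ndrg1 (SE 0.12, edgeR adjusted p = 5.1e-07) and -1.07 for Bnip3 (SE 0.12, edgeR adjusted p = 4.2e-06). In PQ, Ndrg1 had a log2 fold change of -0.31 (edgeR adjusted p = 0.081), which was called without control 1 (-0.41, edgeR adjusted p = 0.023), without PQ 2 (-0.53, edgeR adjusted p = 0.013), with no filter (-0.31, edgeR adjusted p = 0.014) and with the labelled platform as a covariate (-0.32, edgeR adjusted p = 0.040).

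Vegfa, the growth factor of blood vessels, had 967 and 976 CPM in control, 675 and 794 in PQ and 442 and 559.5 in NAC. The groups were apart in the order control, PQ and NAC, with log2 fold changes of -0.40 in PQ (SE 0.11, edgeR adjusted p = 0.013) and -0.96 in NAC (SE 0.11, edgeR adjusted p = 5.0e-06). Without PQ 1 the value in PQ was -0.29 (edgeR adjusted p = 0.21), and limma did not call it (adjusted p = 0.074 in place of edgeR's 0.013). Adm, which encodes the vasodilator peptide adrenomedullin, had 250.5 and 273 CPM in control, 201 and 238 in PQ and 142 and 168 in NAC, with a log2 fold change of -0.76 in NAC (SE 0.11, edgeR adjusted p = 5.4e-05). Ankrd37, an ankyrin repeat gene known to respond to HIF, was low, at 16.1 and 20.9 CPM in control, 8.40 and 14.8 in PQ and 7.43 and 10.8 in NAC. Its values were -1.03 in NAC (SE 0.23, edgeR adjusted p = 0.0036) and -0.68 in PQ (SE 0.22, edgeR adjusted p = 0.039). The call in PQ was lost without PQ 1 (-0.32, edgeR adjusted p = 0.46) or control 2 (-0.48, edgeR adjusted p = 0.18) and with the replicate block (-0.69, edgeR adjusted p = 0.058). It was also lost with DESeq2 and limma, with adjusted p of 0.091 and 0.11 in place of edgeR's 0.039. The call in NAC was lost without NAC 1 (-0.78, edgeR adjusted p = 0.073).

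**Figure D4:**
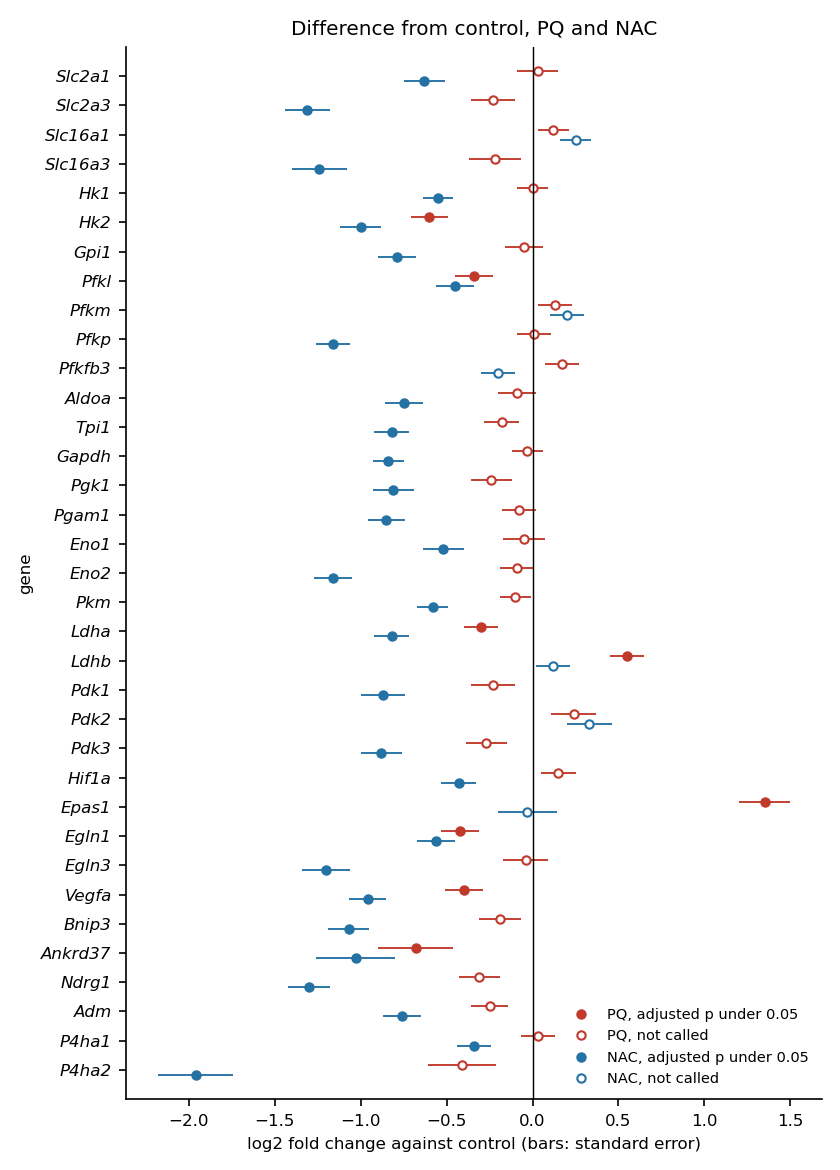
Log2 fold change against control with its standard error for each of the 35 genes, in PQ (red) and NAC (blue); filled points passed the test at an adjusted p under 0.05. The blue points lie left of 0 for 31 genes and reach -1.96 for P4ha2, whereas the red points range from -0.68 for Ankrd37 to 1.35 for Epas1.

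Within families of isoenzymes the fall was uneven, which shifted their shares of the summed FPKM. No test was made on the shares, and the smallest exact permutation p for 2 libraries against 2 is 0.333. In phosphofructokinase, Pfkp held 43.7% and 40.8% in control, 44.3% and 46.6% in PQ and 27.2% and 27.7% in NAC, while Pfkm held 18.7% and 16.6%, 21.1% and 20.3%, and 31.3% and 28.2%. Among the lactate transporters, Slc16a3 held 40% and 38.8% in control, 34.7% and 33.3% in PQ and 15.1% and 22.1% in NAC. The remaining share, that of Slc16a1, rose in turn. Slc2a3 held 45.5% and 47.5% of the glucose transporters in control, 40.3% and 43.6% in PQ and 35.6% and 34.9% in NAC. P4ha2 held 21.9% and 22.4% of its pair in control, 14.9% and 19.5% in PQ and 6.41% and 10.5% in NAC.

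The share of Ldhb lay above control in both treatments. Ldhb held 4.14% and 3.85% of lactate dehydrogenase in control, 7.72% and 6.29% in PQ and 8.15% and 6.73% in NAC. In PQ this came with a higher level of Ldhb and a lower level of Ldha, and in NAC with a lower level of Ldha. Hk2 held 17.5% and 17.0% of the hexokinases in control, 11.4% and 12.8% in PQ and 12.4% and 14.1% in NAC. Pdk2 held 14.6% and 12.3% of its trio in control, 20.4% and 15.9% in PQ and 27.8% and 24.9% in NAC. Eno2 held 5.61% and 4.00% of enolase in control, 4.36% and 4.73% in PQ and 3.01% and 3.11% in NAC, with control and PQ overlapping.

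**Figure D5:**
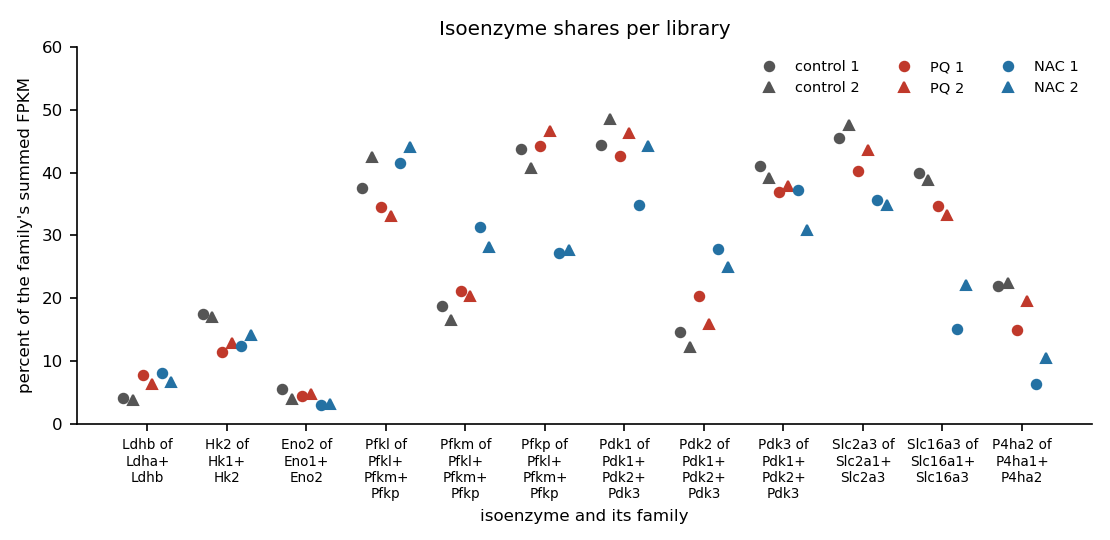
Percent of a family's summed FPKM held by the named isoenzyme, per library; circles and triangles are libraries 1 and 2 of control (grey), PQ (red) and NAC (blue). NAC lies apart from control and PQ for Pfkp (27.2% and 27.7%), Slc16a3 (15.1% and 22.1%) and P4ha2 (6.41% and 10.5%), among other families.

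The wider pathway was read from lists of other genes. Of 54 other hypoxia-responsive genes 45 passed the filter, and 29 of these were lower (64.4%) and 1 was higher (2.22%) in NAC, beside 9.64% and 9.01% of all genes, with -0.60 as the median log2 fold change. Among the same genes 7 were lower and 7 higher in PQ (15.6% each, beside 9.45% and 9.76% of all genes), with a median of -0.06. Of 54 other genes of glycolysis and pyruvate metabolism 35 passed the filter, and 9 were lower (25.7%) and 3 higher (8.57%) in NAC, with a median of -0.05. Within these lists the fall in NAC was common among hypoxia-responsive genes and less so among the other genes around glycolysis. The difference between the lists was not tested. The lists were chosen with earlier results of these data known, so the shares describe these lists only. Of 20 other regulators of HIF 19 passed the filter. Of these, 3 were lower in NAC (15.8%, beside 9.64% of all genes), and 3 were lower and 2 higher in PQ (15.8% and 10.5%, beside 9.45% and 9.76%). Gbe1 and 1 gene below the limit for naming stand in both of the longer lists.

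Several hypoxia-responsive genes of these lists fell at least 2-fold in NAC. Ero1a, an oxidase of the endoplasmic reticulum, had 3157 and 2953 CPM in control, 2209 and 3055 in PQ and 1032 and 1148 in NAC. Its log2 fold change was -1.49 (SE 0.12, edgeR adjusted p = 9.5e-08), and the NAC libraries were far below the rest. Ddit4 (REDD1), which restrains mTORC1, was lower in both treatments, at -1.53 in NAC (edgeR adjusted p = 1.7e-07) and -0.55 in PQ (edgeR adjusted p = 0.0040). Also lower in NAC were Gbe1 (the glycogen branching enzyme) at -1.27, Stc2 at -1.21, Anxa2 at -1.17, Vldlr at -1.04, Ppp1r3b at -1.02 and Higd1a at -1.01. In PQ, Hmox1 (heme oxygenase, also a gene of the oxidative stress response), Inhba and Pgf rose at least 2-fold. Hmox1 had 61.9 and 66.3 CPM in control, 144 and 117 in PQ and 43.5 and 50.2 in NAC, with log2 fold changes of 1.02 in PQ (SE 0.11, edgeR adjusted p = 7.3e-06) and -0.45 in NAC (edgeR adjusted p = 0.011). Inhba was low, with at most 8.46 CPM in any library. Pgf was low as well, at 2.08 and 2.02 CPM in control, 6.40 and 3.03 in PQ and 3.99 and 3.77 in NAC, so that its rise rests mainly on PQ 1.

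Among the other glycolysis genes, Aldoc went against Aldoa. Aldoc, the aldolase of brain and of astrocytes in particular, had 72.6 and 79.9 CPM in control, 71.7 and 79.8 in PQ and 162 in each NAC library. It rose in NAC with a log2 fold change of 1.09 (SE 0.10, edgeR adjusted p = 3.6e-07). The level of Aldoc was 96.6 and 97.3 FPKM in NAC, beside 812 and 1039 FPKM for Aldoa. Pck2, the mitochondrial enzyme that makes phosphoenolpyruvate, had 82.9 and 53.0 CPM in control, 19.1 and 20.7 in PQ and 28.8 and 25.4 in NAC. It fell in both treatments, with log2 fold changes of -1.77 in PQ (SE 0.17, edgeR adjusted p = 1.4e-06) and -1.32 in NAC (SE 0.16, edgeR adjusted p = 1.0e-05), from control libraries that differed between themselves. Some other isoenzymes of the pathway were not detectable at this depth, with at most 3 counts in every library: Hk3, Fbp1, Pklr, Ldhc, Ldhd and Slc2a12, along with the hypoxia-responsive genes Angptl4 and Cox4i2. Fbp2, Pgk2, Pdk4, Lox and Epo were not listed in any library.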

How the data were processed

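RNA of NSPCs was sequenced in 6 libraries. Per the file headers and labels, the authors deposited for each gene an expected count (an estimate that can be fractional) and an FPKM value (relative to the length of the transcript and the size of the library). The labels name TopHat2 2.0.11 and Cufflinks 2.1.1 on mm9 for control 1 and PQ 1, and HISAT2 2.0.4, Bowtie2 2.2.5 and RSEM on mm10 for the other libraries; the columns of all 6 tables are of the RSEM type. Whether strand was used in counting is not given in the sources used here.

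Gene identifiers were matched to NCBI symbols (99.7% of 17254), and genes absent from a table were taken as 0. Expected counts were rounded and tested with edgeR 4.0.16 (R 4.3.3; TMM, glmQLFit and glmQLFTest, all 6 libraries in 1 fit, no covariates) on the 11717 genes whose FPKM averaged 1 or more; p was adjusted over all of these by Benjamini-Hochberg, and the threshold was 0.05. Scripts were tested on simulated data. Alternatives were DESeq2 1.42.0, no filter, a replicate block (the set), a covariate for the platform named in the labels, a fit of just the 4 libraries of a comparison, each library left out, and limma 3.58.1 on log2(FPKM + 1) and log2(FPKM + 0.1). Values per library are given for members called with a fold of at least 1.5 in some comparison and for Hif1a, Ldha, Slc2a1, Gapdh and Vegfa; values of the remaining members are printed beyond that rule. Genes of the wider lists are named when called with a fold of at least 2 against control or with at most 3 counts in every library; 3 older symbols of listed genes were left out. The members and lists were chosen with earlier results of these data known.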

Additional observations from a re-analysis of the deposited data

How the results depend on the processing

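All 29 genes called lower in NAC against control kept their call with DESeq2, without a filter, with the set as a replicate block, with the labelled platform as a covariate and with only the 4 libraries compared; limma on FPKM kept 26 of them with either pseudocount, losing Pfkl, Eno1 and P4ha1. Leaving out 1 library at a time (a group then has 1 library, assumed to vary like the others) gave 25 to 28 lower genes, 0 to 1 higher (Pdk2, without control 1) and a median from -0.93 to -0.65. Between PQ and NAC it gave 24 to 29 genes higher in PQ and a median from 0.47 to 0.73. The small count in PQ against control depended more on the setting. Of the 6 genes lower in PQ, 5 were called with DESeq2 (not Ankrd37), 3 with the replicate block and 2 with limma on log2(FPKM + 1) or log2(FPKM + 0.1), which lost Pfkl, Ldha, Vegfa and Ankrd37. Without the filter 9 were lower (Pgk1, Ndrg1 and P4ha2 gained), and the count ran from 1 to 8 with a library left out. It was 1, Hk2, without PQ 1 and 3 without control 2. The cause was not tested. The 2 genes higher in PQ were called in each setting, and no called gene changed sign. Over all genes tested, libraries of the same set did not deviate together. The correlation of their deviations was -0.063 for control and PQ, -0.106 for control and NAC and 0.083 for NAC and PQ. Of the 35 genes of the list, however, set A was above set B for 29 in control and 27 in PQ, and for 4 in NAC. In control and PQ the sets also differ in the labelled platform. On the scale of normalized counts, not per length, 52 of the 54 group means of isoenzyme shares moved by more than 1 SD, by construction, while all 18 isoenzymes kept the sign of their difference from control in NAC and in PQ. Pfkp then held 45.6% in control and 30.8% in NAC, and Slc16a3 26.4% and 11.2%.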
